A study of Mus musculus with 14 samples.

Results

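The comparison of end states covered the 4 ATAC-seq libraries of 0 h and 48 h, 2 at each time, out of 14 libraries at 7 time points. The 4 peak lists were merged wherever peaks overlapped by 1 bp or more, which gave 95406 regions. A region was gained if it was called in both libraries of 48 h and in neither of 0 h, which held for 18521 regions (19.4%). A region was lost in the reverse case, which held for 21090 (22.1%), and shared if called in all 4 libraries, which held for 23500 (24.6%). The remaining 32295 regions (33.9%) were called in some other combination and are termed mixed.

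ATAC-seq uses a transposase to cut open DNA and attach sequencing adapters to it, so that peaks of reads mark accessible chromatin. The cells were mouse embryonic stem (ES) cells of the line KH2, labelled C57BL/6, and all of them, at 0 h included, carried the transgene TRE:GATA6-DSREd2, from which doxycycline (Dox) induces GATA6. Cells at 0 h were in a serum-free medium with 2 inhibitors (2i) and LIF and received no Dox. Cells at 48 h had been moved to serum medium with LIF and 1 µg/mL Dox for 12 h and were then kept in serum medium without Dox. The change of medium and the induction of GATA6 therefore cannot be told apart. The source is 1 engineered line, each library was made from 50000 unsorted cells, and nothing in the labels says that the replicates came from separate cultures. In bulk samples, a larger share of cells with a region open and a more open region per cell also cannot be told apart.

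The early mouse embryo separates into the epiblast (Epi), which forms the fetus, and the primitive endoderm (PrE), which forms the yolk sac endoderm. GATA6 is required for PrE and acts before GATA4, SOX17 and SOX7, while NANOG, SOX2 and OCT4 (encoded by Pou5f1) maintain the pluripotent state of the epiblast and of ES cells. PrE cells secrete and rest on a basement membrane of laminin and collagen IV and later take up nutrients through endocytic receptors. GATA factors recognize the letters GATA preceded by A or T and followed by A or G. Distal regions that hold such sites often act as enhancers.

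Sequences of the strongest regions of the leading genes are shown first, with a different set of letters marked in each class, as examples of the motifs counted over all regions further on. Each is the central 200 bp, on the plus strand of GRCm38, of the region near that gene with the highest score rank within its libraries. The first 3 were gained, and capitals mark GATA sites (GATA preceded by A or T and followed by A or G, on either strand). Rreb1, Mical2 and Frmd4b had the most gained regions of all protein-coding genes.
Rreb1, chr13:37731054-37731253: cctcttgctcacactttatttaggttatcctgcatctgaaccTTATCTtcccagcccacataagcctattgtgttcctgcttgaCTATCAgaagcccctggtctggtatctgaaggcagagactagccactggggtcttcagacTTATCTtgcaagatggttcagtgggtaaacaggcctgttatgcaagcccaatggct
Mical2, chr7:112305560-112305759: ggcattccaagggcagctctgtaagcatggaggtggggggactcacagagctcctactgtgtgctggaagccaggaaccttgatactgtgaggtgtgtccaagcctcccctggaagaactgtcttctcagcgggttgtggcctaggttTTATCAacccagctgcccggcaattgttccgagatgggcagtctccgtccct
Frmd4b, chr6:97409818-97410017: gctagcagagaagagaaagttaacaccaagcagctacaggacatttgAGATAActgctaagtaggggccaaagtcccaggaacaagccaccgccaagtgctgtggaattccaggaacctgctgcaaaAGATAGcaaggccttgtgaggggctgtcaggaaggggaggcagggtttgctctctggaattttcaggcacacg
The Rreb1 region lay between genes, 47247 bp from the nearest transcription start site (TSS), and held 3 GATA sites. The regions of Mical2 and Frmd4b were intronic and held 1 and 2 sites. The Mical2 region was called in every library from 16 h and in none before.

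The next 3 were lost and belong to the genes with the most lost regions. Capitals mark matches to AAGGTCA, the site of ESRRB, and to GGGTGTGG, the site of KLF factors, in either direction. Both proteins act in the self-renewal of ES cells.
Tenm4, chr7:96655494-96655693: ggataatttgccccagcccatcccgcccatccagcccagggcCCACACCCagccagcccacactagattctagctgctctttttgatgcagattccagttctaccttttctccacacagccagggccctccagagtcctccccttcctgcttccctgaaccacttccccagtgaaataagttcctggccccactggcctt
Rbfox2, chr15:77202253-77202452: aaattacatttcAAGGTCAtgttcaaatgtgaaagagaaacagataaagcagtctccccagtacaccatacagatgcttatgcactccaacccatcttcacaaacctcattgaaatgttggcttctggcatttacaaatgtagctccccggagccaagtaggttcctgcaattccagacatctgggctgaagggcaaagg
Mast4, chr13:102957864-102958063: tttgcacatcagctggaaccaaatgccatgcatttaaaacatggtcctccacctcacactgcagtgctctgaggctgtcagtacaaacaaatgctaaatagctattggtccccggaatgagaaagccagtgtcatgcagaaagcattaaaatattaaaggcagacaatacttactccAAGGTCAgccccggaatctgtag
All 3 were intronic, and they lay 11422 bp (Tenm4), 1083 bp (Rbfox2) and 382 bp (Mast4) from the nearest TSS. The Tenm4 region held 1 KLF match, and those of Rbfox2 and Mast4 held 1 ESRRB match each. The Rbfox2 sequence also held 1 GATA site, left in lower case, and the other lost sequences held none. None of the 3 gained sequences held an ESRRB or KLF match. The Rbfox2 region was called in every library up to 4 h and in none from 8 h. The Mast4 region was called in every library up to 16 h and in neither of 24 h.

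The 4 lists were of like size. The 0 h libraries had 56924 and 60483 peaks covering 27.97 and 29.86 Mb, and the 48 h libraries had 55588 and 58450 peaks covering 23.05 and 25.59 Mb, so the later lists covered less sequence. Read depth is unknown from the lists. Within each pair of libraries that bear the same replicate number, 26729 ± 706 regions were called at 48 h alone and 28966 ± 658 at 0 h alone (SD, n = 2 pairs). For 4 libraries in 2 groups an exact two-sided permutation test cannot go below p = 0.333, so the classes are counts and carry no p-value.

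Gained and lost regions were mostly distal, unlike shared regions. Among gained regions 13.3% lay within 1 kb of a TSS of a protein-coding gene, of lost regions 8.04% and of shared regions 51.1%. The median distance to the nearest TSS was 13.9 kb for gained, 17.996 kb for lost and 0.826 kb for shared regions. Introns held 45.5% of the gained, 47.4% of the lost and 31.1% of the shared ones. The TSS shares by replicate pair were 16.0% ± 0.336 for gained and 9.60% ± 0.128 for lost regions (SD, n = 2 pairs). All gained and lost regions are counted in both pairs, so the SD is no yardstick for this difference.

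Of the 8 motifs given here, GATA sites differed most in percentage points between gained and lost regions. A site stood in the central 200 bp of 58.6% of gained regions, 21.5% of the lost and 17.8% of the shared ones, against 30.6% of all merged regions. By replicate pair the shares were 52.3% ± 0.403 for gained and 21.4% ± 0.00435 for lost regions (SD, n = 2 pairs). A permuted version of the motif (AGTA between the same flanking letters) was matched in 23.9% of gained and 23.2% of lost regions. When promoters were set aside by keeping regions more than 5 kb from any TSS, the shares were 63.3% (gained), 22.4% (lost) and 27.1% (shared). How far into a region the search reached moved all 3 shares. With the whole region searched they were 72.2%, 50.3% and 46.0%.

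Motifs of the ES cell regulators OCT4, ESRRB and KLF were more frequent in lost than in gained regions, whereas a SOX site was more frequent in gained ones. At the same distance from promoters, the octamer ATGCAAAT bound by OCT4 was in 4.81% of lost, 1.15% of gained and 2.06% of shared regions. The ESRRB match was in 8.97%, 4.66% and 5.16% in this order, and the KLF match in 6.76%, 3.54% and 4.77%. Gained regions more often held ACAATG, a SOX site, with 23.4% against 15.4% of lost and 13.1% of shared regions. Whether SOX2 of ES cells or SOX17 and SOX7 of PrE bind these sites was not tested. GGAATG, a TEAD site, was in 19.9% of gained and 14.7% of lost regions. TGANTCA, the AP-1 site, was nearly as frequent in gained (7.59%) as in lost regions (8.24%). In these numbers a match is a string of letters and not a bound site.

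The 10 libraries between the end states were not used to define the classes. Gained regions were called in 14.7% and 15.8% of cases in the 2 libraries of 2 h, 36.9% in both of 8 h, 49.2% and 52.9% at 16 h and 62.3% and 64.2% at 24 h. The share was higher at each later time point, with no overlap between the libraries of neighbouring times. Lost regions were still called in 59.1% and 62.4% of cases at 2 h, 38.2% and 38.5% at 8 h, 37.4% and 41.1% at 16 h, and 18.2% and 19.7% at 24 h. The 8 h and 16 h libraries overlapped for lost regions, while each other step was lower than the one before. Shared regions were called in 91.8% to 97.2% of cases in these libraries.

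**Figure D1:**
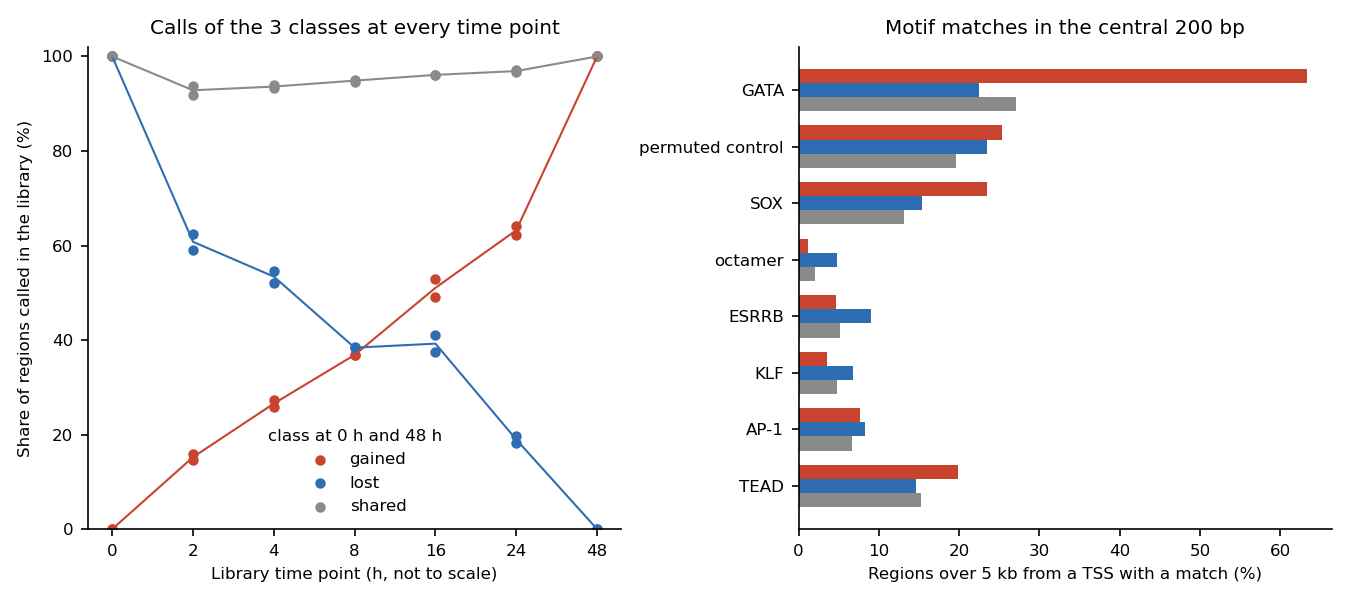
The left panel plots the share (%) of gained, lost and shared regions called in each library against time point (h, spacing not to scale), with points for libraries and lines through their means, and 0 h and 48 h are fixed by the definition of the classes. The right panel gives the share (%) of promoter-distant regions (over 5 kb) with each motif in the central 200 bp, where GATA is in 63.3% of the gained and 22.4% of the lost ones.

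To rank genes, each region was given to the protein-coding gene with the nearest TSS within 50 kb, which placed 14359 gained and 15188 lost regions. Of 21938 protein-coding genes, 7669 had at least 1 gained and 7879 at least 1 lost region. More gained than lost regions were near 4708 genes (21.5%), and more lost than gained near 5054 (23%). At least 5 gained regions were near 432 genes (1.97%), which held 18.8% of the gained regions placed. At least 5 lost regions were near 469 genes (2.14%), which held 20.1% of the lost ones. The first count was 804 and 713 without replicate 1 or 2 of 48 h, and the second 895 and 754 without replicate 1 or 2 of 0 h. Regions were thus spread over many genes, and 4370 genes had 1 gained and 4355 genes 1 lost region.

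The stretch of genome nearest to a gene differed in length and moved with these counts. Its median was 50.6 kb over genes with a region, 145 kb over genes with at least 5 gained and 177 kb over genes with at least 5 lost regions. Of the 432 and 469 genes, 323 and 388 were in the fifth of genes with the longest stretch. The part of this length in the ranks was not tested.

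Genes that the study's blastocyst-derived lists assign to PrE or Epi were set beside the ranks, and these lists did not come from the ATAC-seq libraries. Of the protein-coding genes, 571 (2.60%) were PrE genes. They made up 77 of the 432 genes (17.8%) with at least 5 gained regions and 13 of the 469 (2.77%) with at least 5 lost regions. Among the 100 genes with most gained regions 29 were PrE genes, and among the 100 with most lost regions 3. The 218 Epi genes (0.994%) made up 8 of the 432 (1.85%) and 28 of the 469 (5.97%), and 3 and 11 of the leading 100.

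The 15 genes with most gained regions had 10 to 16 of them. They were ranked on these same 4 libraries, so the direction of their called counts was largely set by the choice, and the values are a description. Rreb1, a zinc finger factor downstream of RAS (chromosome 13, 37778400 to 37952005), had 17 and 15 regions called at 0 h and 26 and 29 at 48 h. These comprised 16 gained, 5 lost, 9 shared and 7 mixed regions, and 9 of the 16 gained ones held a GATA site. Its gained regions ran from upstream of the gene to its far end, and 8 were intronic. In the intermediate libraries 3 of the 16 were called in each of 2 h, 8 and 9 at 8 h, and 11 and 12 at 24 h.

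Mical2, an enzyme that oxidizes actin (chromosome 7, 112225856 to 112413106), had 5 and 3 called regions at 0 h and 19 and 21 at 48 h. Of these regions 15 were gained, 1 was lost and 2 were shared. Ubash3b, a phosphatase that limits tyrosine kinase signalling, had 3 called regions in each 0 h library and 17 and 18 at 48 h, with 13 gained and none lost. Bend5, a BEN domain protein on the PrE list, likewise had 3 in each 0 h library and 14 in each 48 h library, with 10 gained and none lost. These 3 genes had few regions at 0 h and mostly new ones at 48 h.

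Frmd4b, a scaffold with a FERM domain, had 16 and 16 called regions at 0 h and 26 and 29 at 48 h, with 15 gained and 5 lost. Ptpn14, a phosphatase known to restrain YAP and a PrE list gene, had 11 and 10 at 0 h and 19 and 20 at 48 h, with 14 gained and 4 lost. Iqsec1, an exchange factor for ARF6, had 9 and 8 at 0 h and 20 and 26 at 48 h, with 12 gained and 1 lost. Of the next genes, which had 11 gained regions each, Tcf7l2, the Wnt pathway factor, had 2 lost, Zmiz1, a transcriptional coactivator, and Svil, which links actin to the membrane, 4 each, Ank2, an ankyrin, and Trio, an exchange factor for small GTPases, 6 each, Rere, a corepressor, 7 and Tns3, a focal adhesion protein, 9. Pde4d, with 11 gained regions, had 15 lost ones.

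The 15 genes with most lost regions had 12 to 27 of them, and their called counts are likewise a description. Tenm4, a teneurin that spans the membrane (chromosome 7, 96171246 to 96911093), had 33 and 32 regions called at 0 h and 4 and 6 at 48 h. It had 27 lost regions, the highest count of any gene, against 1 gained and 3 shared, and 24 of the lost ones were intronic. Among the 27, 18 and 19 were still called at 2 h, 9 and 11 at 8 h and 8 in each library of 24 h. Of the 27, 6 held a GATA site.

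Rbfox2, a splicing regulator (chromosome 15, 77078990 to 77307004), had 28 and 32 called regions at 0 h and 10 in each library of 48 h, with 17 lost and 1 gained. Mast4, a kinase, had 25 and 23 at 0 h and 7 in each library of 48 h, with 15 lost. Nav1, a microtubule-binding protein, had 25 and 24 at 0 h and 7 and 9 at 48 h, with 15 lost and none gained. Tspan5, a tetraspanin, and Macf1, which links actin to microtubules, had 15 lost regions each beside 3 and 5 gained ones. The other genes of the leading 15 had 12 to 15 lost regions. They were Pde4d, the kinase Map4k3, the myosin Myo10 on the Epi list, the cytolinker Dst, the methyltransferase Smyd3, the Rac activator Elmo1, the nuclear envelope protein Syne2, the zinc finger protein Zfp704 and Snd1, a nuclease on the PrE list.

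**Figure D2:**
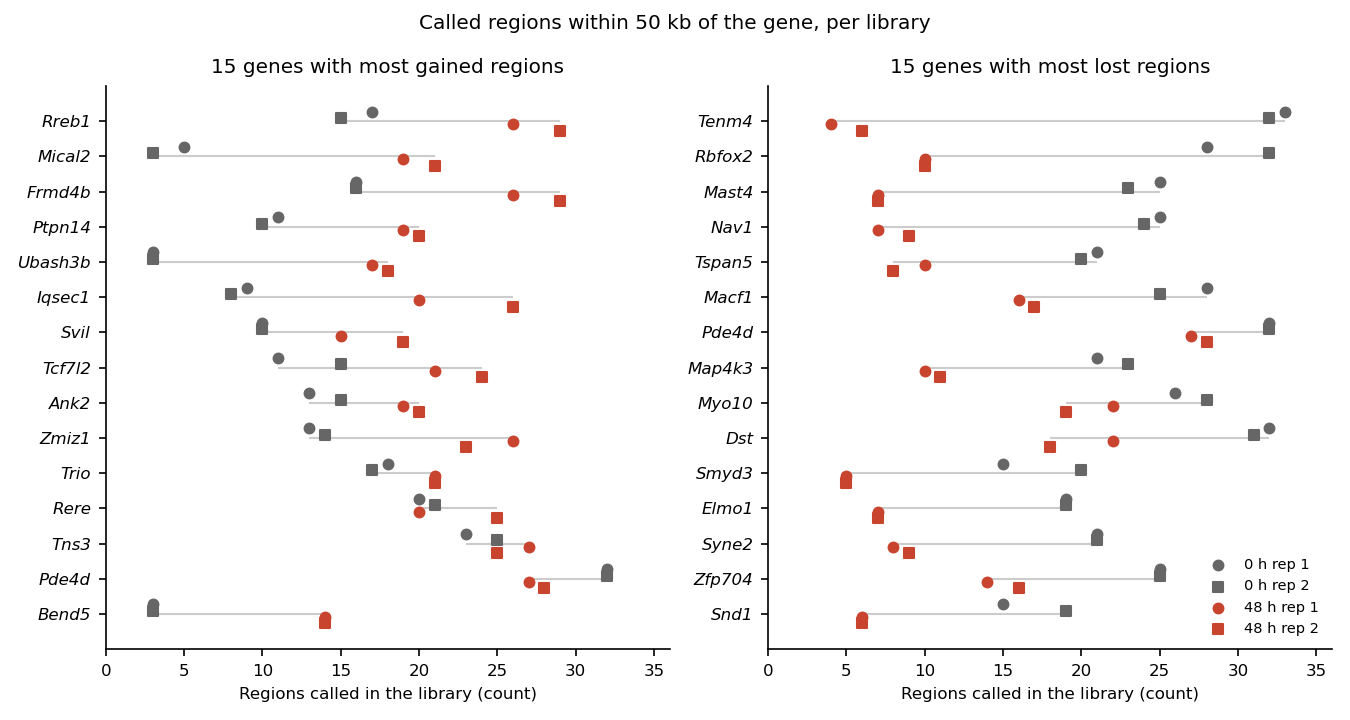
Each row is a gene, and the x axis gives the number of regions within 50 kb that were called in each library, with circles for replicate 1, squares for replicate 2, grey for 0 h and red for 48 h. Tenm4 goes from 33 and 32 to 4 and 6, while Mical2 goes from 5 and 3 to 19 and 21.

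The names at the head of the ranks rested on which start sites were used and how far away they could lie. When each gene kept only 1 TSS, its annotated 5′ end, 1 of the 15 gained genes and 4 of the 15 lost genes stayed among the leading 15. Tenm4 then had 4 lost regions and Frmd4b 1 gained region. Genes near the head of the gained ranks were then Dcbld1, Snx10, Pdgfra and Lifr with 9 each. Nav1 led the lost ranks with 10, followed by Macf1, Zfp518b and Tspan5 with 9 each. Within 20 kb of a TSS in place of 50 kb, 7 of the 15 gained and 9 of the 15 lost genes stayed in the leading 15, and 8 and 13 in the leading 50. Leaving out any 1 library kept 9 to 11 of the 15 gained and 11 to 13 of the 15 lost genes in the leading 15, and all of them in the leading 50.

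Some genes had both gained and lost regions. Of 21938 protein-coding genes, 7669 had a gained and 7879 a lost region, and 4221 (19.2%) had at least 1 of each. Of the same 21938 genes, 106 had at least 5 of each, with a median nearest stretch of 231 kb. The part of this length in the overlap was not tested. Pde4d, a cAMP phosphodiesterase whose nearest stretch spans 1005 kb, had 11 gained, 15 lost and 13 shared regions, with 32 called in each 0 h library and 27 and 28 at 48 h. Etl4 had 9 gained and 12 lost regions, Sgms1, a sphingomyelin synthase, 9 and 11, Tns3 11 and 9, Frmd4a, a scaffold related to Frmd4b, 9 and 10, and Tcf4, a helix-loop-helix factor, 9 and 9. Tead1, a DNA-binding partner of YAP, had 9 gained and 8 lost regions, and Eps8, an actin regulator, Msi2, an RNA-binding protein, and Nav2, a relative of Nav1, had 8 of each. Tead1 and Eps8 are on the PrE list and Tns3 and Nav2 on the Epi list.

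These 10 genes were chosen for having many regions of both classes, so a balance of gained and lost regions was set by the choice. Eps8 had 13 called regions in each 0 h library and 13 and 14 at 48 h, and Tead1 had 22 and 24 at 0 h and 22 in each library of 48 h. Etl4 went from 32 and 33 called regions to 25 and 27, and Sgms1 from 21 and 20 to 17 in each library. GATA sites were in 8 of 11 gained and 3 of 15 lost regions of Pde4d, in 8 of 9 and 1 of 8 of Tead1, in 5 of 9 and 2 of 9 of Tcf4, and in 5 of 9 and 4 of 12 of Etl4. The same gap stood between all gained (58.6%) and all lost regions (21.5%). Genome-wide, the median distance from a gained region to the nearest lost one was 27.2 kb, and 15.6% of gained regions had a lost region within 5 kb.

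**Figure D3:**
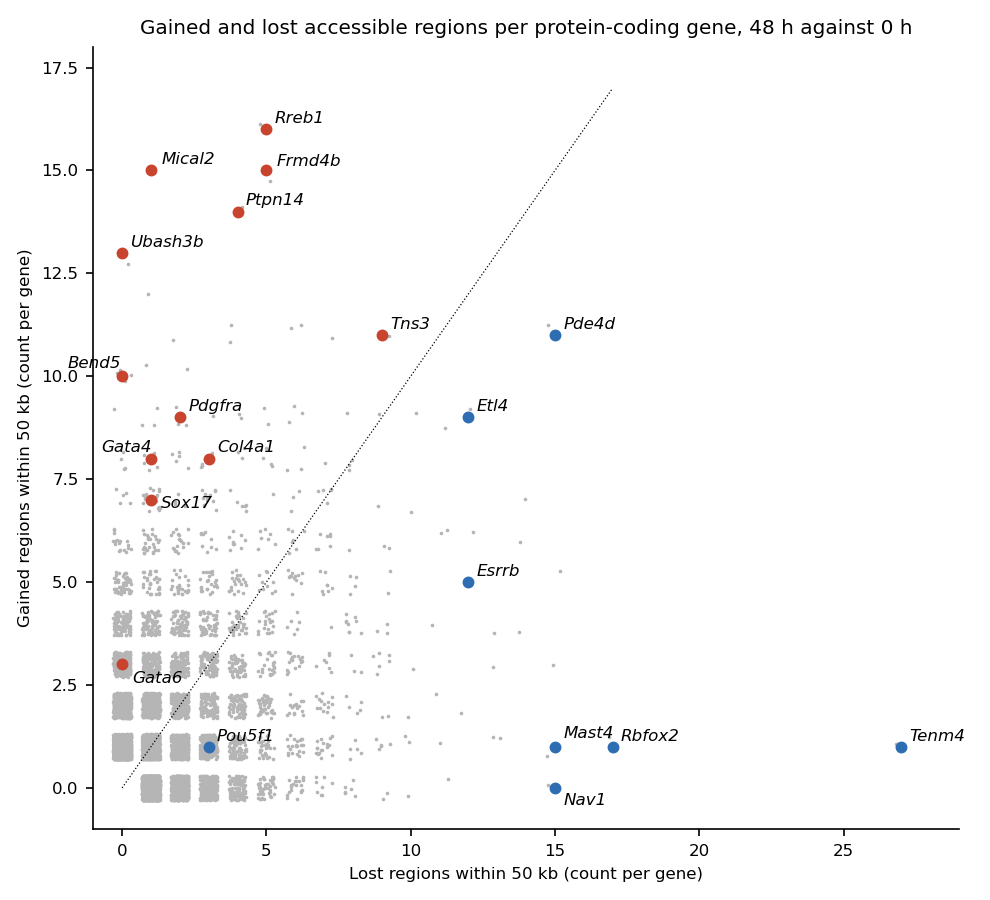
Each grey point is a protein-coding gene, spread slightly at random, with its number of lost regions (x axis) and gained regions (y axis) within 50 kb, and coloured points are named genes above (red) or below (blue) the dotted line of equal counts. Tenm4 stands alone at 27 lost regions, Rreb1 is highest at 16 gained regions, and Pde4d is far along both axes.

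**Figure D4:**
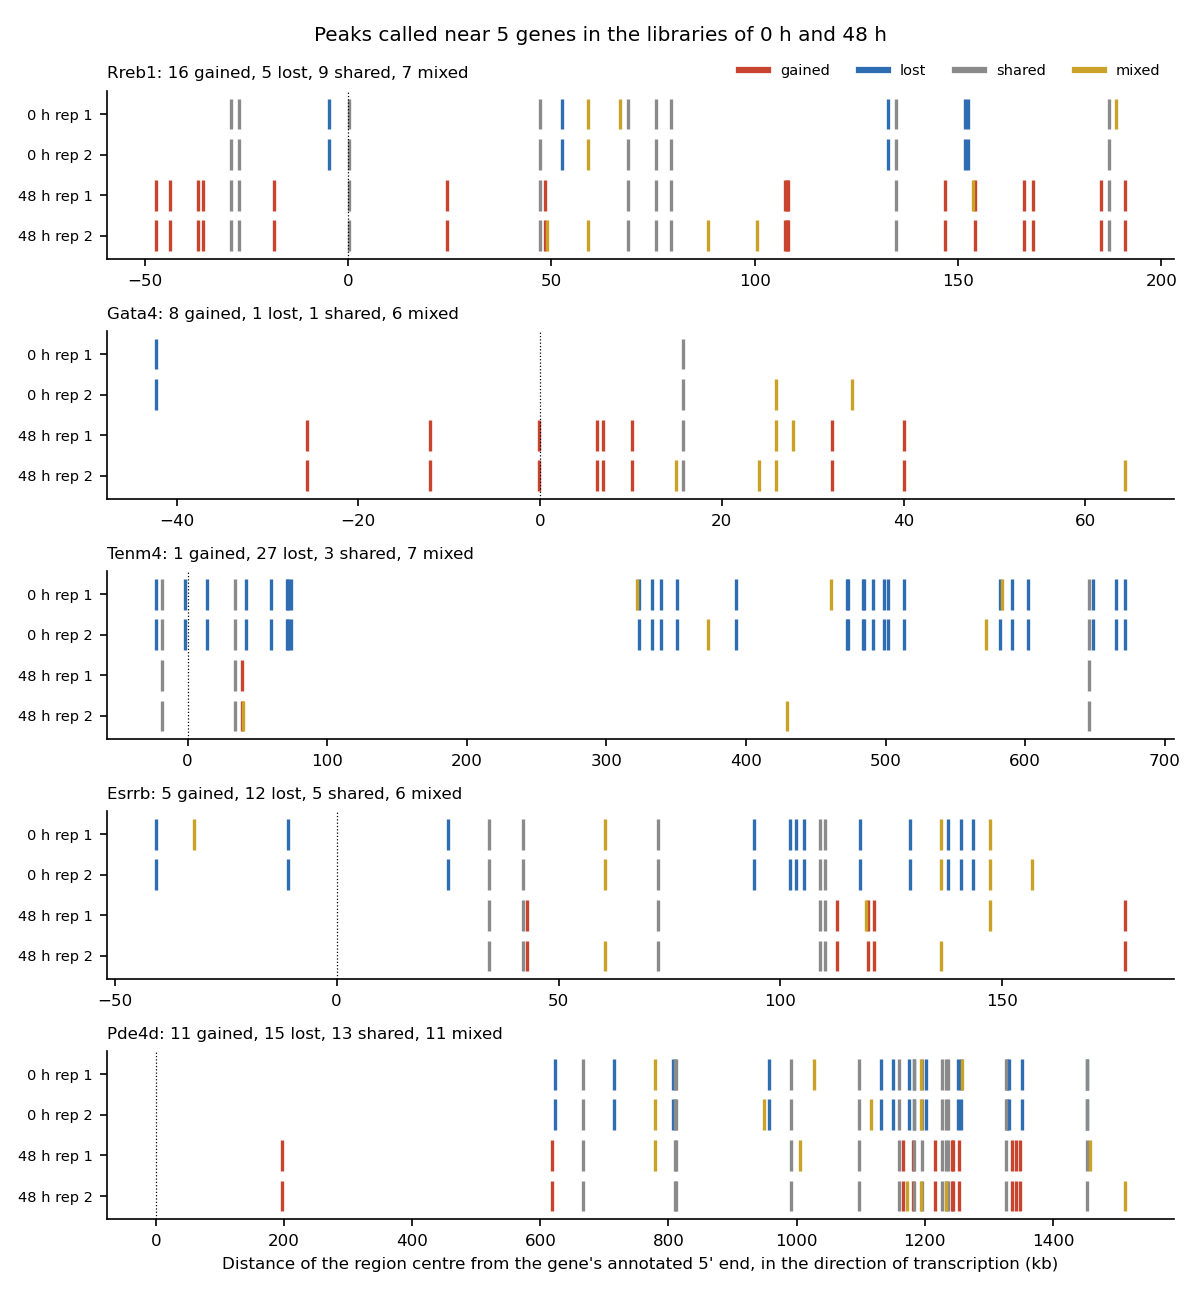
Regions near 5 genes are drawn at their distance (kb) from the annotated 5′ end of the gene, in the direction of transcription, with 1 row per library and a tick where the region was called, coloured by class. Gained and lost regions are interleaved near Rreb1, Esrrb and Pde4d, while Gata4 has 8 gained regions and 1 lost and Tenm4 has 27 lost and 1 gained.

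The regulators of PrE had the clearest excess of gained regions. Near 9 PrE transcription factor genes there were 46 gained and 6 lost of 92 regions (50% and 6.52%), against 18.7% and 19.8% of the regions of all protein-coding genes. The 0 h libraries called 21 and 24 of these regions and the 48 h libraries 73 each. The list was chosen with earlier results of these data known, so these counts are no independent check of the labels. More gained than lost regions were near 8 of the 9 genes, and Hhex had 1 of each. These 9 PrE transcription factor genes together had more gained than lost regions under all 12 alternatives computed for gene counts.

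Gata4, for a zinc finger factor related to GATA6 (chromosome 14, 63198922 to 63271692), went from 2 and 4 called regions at 0 h to 11 and 13 at 48 h. It had 8 gained regions, 5 of them intronic and 5 with a GATA site. Foxa2, for a forkhead factor, went from 3 and 3 to 10 and 12 with 7 gained. Sox17 went from 2 and 3 to 10 and 9 with 7 gained, and Hnf4a from 2 and 3 to 9 and 9 with 6 gained. Each of these 4 genes also had 1 lost region.

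The gene of the induced factor itself, Gata6, had 3 gained and no lost regions, with 3 and 4 called at 0 h and 7 and 8 at 48 h. None of the 3 gained regions had its centre in an exon, and all 3 held a GATA site. Sox7 had 3 gained regions, all with a GATA site, and 1 lost. These 3 were called in at most 1 case in any library up to 24 h, whereas all 7 of Sox17 and all 7 of Foxa2 were called in both libraries of 24 h. Lhx1 had 1 gained region and none lost.

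The core pluripotency genes had fewer gained than lost regions. Near Pou5f1, Sox2, Nanog and Sall4 there were 4 gained (10.3%) and 9 lost (23.1%) of 39 regions, against 18.7% and 19.8% for all protein-coding genes, and 10 were shared. Each gene had 1 gained and 2 or 3 lost regions. The 0 h libraries called 22 and 25 of them and the 48 h libraries 19 and 23, so the libraries overlapped. Pou5f1 had 5 called regions in each 0 h library and 3 and 6 at 48 h, and its 3 lost regions lay upstream, 1009, 5194 and 15384 bp from its start. Nanog had 5 and 7 at 0 h and 4 in each library of 48 h, with 1 lost region at its start. Without replicate 1 of 48 h this list had 10 gained and 9 lost regions.

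Genes of the naive state, which 2i medium supports, went both ways. Near 15 of them there were 41 gained and 49 lost of 176 regions (23.3% and 27.8%), with more gained near 6 and more lost near 7. Without replicate 1 of 48 h the counts were 54 gained and 51 lost. Esrrb, an orphan nuclear receptor, had 12 lost and 5 gained regions and went from 21 called regions in each 0 h library to 12 in each 48 h library. Fgf4 had 5 lost and no gained regions, with 8 called in each 0 h library and 1 and 2 at 48 h. Klf4, in contrast, had 6 gained and 1 lost, with 2 and 5 called at 0 h and 9 and 11 at 48 h. Klf5 had 7 gained and 4 lost regions, and Tbx3 7 of each, and both are on the PrE list. Formative and primed epiblast genes had 16 gained and 17 lost of 81 regions (19.8% and 20.99%), near the shares of all genes, among them 4 lost and none gained at Lef1, a Wnt pathway factor.

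Genes of PrE function had more gained than lost regions. Near 13 basement membrane genes 55 of 179 regions were gained and 31 lost (30.7% and 17.3%), and the libraries called 86 and 83 at 0 h and 113 and 116 at 48 h. Col4a1, a collagen IV chain, went from 7 and 5 to 15 and 16 called regions with 8 gained and 3 lost, and its neighbour Col4a2 had 6 gained and none lost. The laminin genes Lama1 and Lamb1 had 7 and 6 gained against 3 and 2 lost, whereas Lamc1, with 8 and 7, and the integrin gene Itga6, with 6 and 6, had about as many of each. Nid1, for the basement membrane linker nidogen, went the other way, with 4 lost and no gained regions and 7 and 8 called at 0 h against 3 in each library of 48 h. Near 8 endocytic receptor genes 26 of 60 regions were gained and 6 lost (43.3% and 10%). Cubn, the receptor cubilin, had 7 gained and 1 lost, and Lrpap1 had 7 and 0. Both lists had more gained than lost regions under all 12 alternatives.

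Markers of later endoderm had more gained than lost regions, with few regions in all. Near 12 genes for proteins secreted by visceral endoderm 9 of 30 regions were gained and 3 lost (30% and 10%), and 8 of the genes, Afp and Apoa1 included, had neither. Ttr had 3 gained and 1 lost, and Alb and Apoe 2 gained and none lost. Near 8 markers of parietal endoderm there were 16 gained and 3 lost of 42 regions (38.1% and 7.14%). Of the gained ones, 6 were near Srgn, a proteoglycan gene, and 3 near Pth1r. More gained than lost regions were near 5 of these 8 genes, Vim had 1 lost and none gained, and Thbd and Fst had neither. Near epithelial junction and keratin genes 21 of 74 were gained and 8 lost (28.4% and 10.8%), with 8 gained and none lost at Tjp1, which encodes a tight junction protein, and 3 gained and none lost at Krt8.

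Receptor genes diverged within 1 list. Near its 9 genes 43 of 125 regions were gained and 27 lost (34.4% and 21.6%), against 18.7% and 19.8% for all protein-coding genes. More gained than lost regions were near 5 of the 9 and more lost near 3. Fgfr2 had 10 gained and no lost regions and went from 3 and 4 called regions at 0 h to 14 and 16 at 48 h. Pdgfra, a surface marker of PrE, had 9 gained and 2 lost and went from 6 and 5 to 14 and 13. Fgfr3 had 5 gained and none lost. Fgfr1 had 6 lost and 1 gained and went from 9 in each library to 4 in each, and Kit had 8 lost and 4 gained and went from 12 and 14 to 7 and 6. FGF signals direct inner cell mass cells to PrE, and of the 4 FGF receptor genes Fgfr1 alone had more lost than gained regions. Lifr, the LIF receptor, had 9 gained and 6 lost.

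Signalling genes showed smaller net counts, and their shares lay nearer to those of all protein-coding genes (18.7% gained, 19.8% lost) than the shares of PrE transcription factors did. FGF and ERK feedback genes had 28 gained and 27 lost of 126 regions (22.2% and 21.4%), 9 of the gained ones near Etv5. BMP pathway genes had 22 gained and 16 lost of 86 (25.6% and 18.6%), 6 of the gained ones near Bmp6, which had none lost. Nodal pathway genes had 13 and 15 of 61 (21.3% and 24.6%), with 4 lost and none gained at the receptor gene Acvr2b. Wnt pathway targets had 15 and 22 of 74 (20.3% and 29.7%), with 4 lost and 1 gained at Axin2. Retinoid genes had 18 and 16 of 66 (27.3% and 24.2%), with 5 lost and none gained at Crabp1 and 5 gained and 2 lost at Rarb. Which class had the larger count was kept under 7 of 12 alternatives for each of the FGF and ERK, Nodal and retinoid lists.

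Genes of other lineages and controls gave a frame for these counts. Trophectoderm genes had 18 gained and 30 lost of 95 regions (18.9% and 31.6%), none had more gained than lost, and Tead4 had 8 lost and Tfap2c 5. Mesoderm genes had 9 and 7 of 38 (23.7% and 18.4%) and neural genes 6 and 7 of 38 (15.8% and 18.4%), near the shares of all genes. Blood cell genes had 1 gained and 7 lost among 17 regions (5.88% and 41.2%), and Cd79a had no region. Their lost share was the largest of all the lists, against 19.8% for all protein-coding genes, though it rested on few regions. AP-1 factor genes had 14 gained, 7 lost and 27 shared of 67 regions (20.9%, 10.4% and 40.3%). Of the regions of all protein-coding genes 27.9% were shared. SRF and YAP targets had 18 gained and 11 lost of 61 (29.5% and 18.03%), 9 of the gained ones near Amotl2, and DNA methylation enzymes 9 and 7 of 53 (16.98% and 13.2%), 6 of the gained ones near Tet1. The larger count was kept under 8 of 12 alternatives for DNA methylation and neural genes, 9 for formative genes, 10 for mesoderm genes and 11 for core pluripotency, naive and housekeeping genes. Housekeeping genes had 24 shared of 55 regions (43.6%), with 7 gained (12.7%), 5 of them near Actb, and 4 lost (7.27%).

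**Figure D5:**
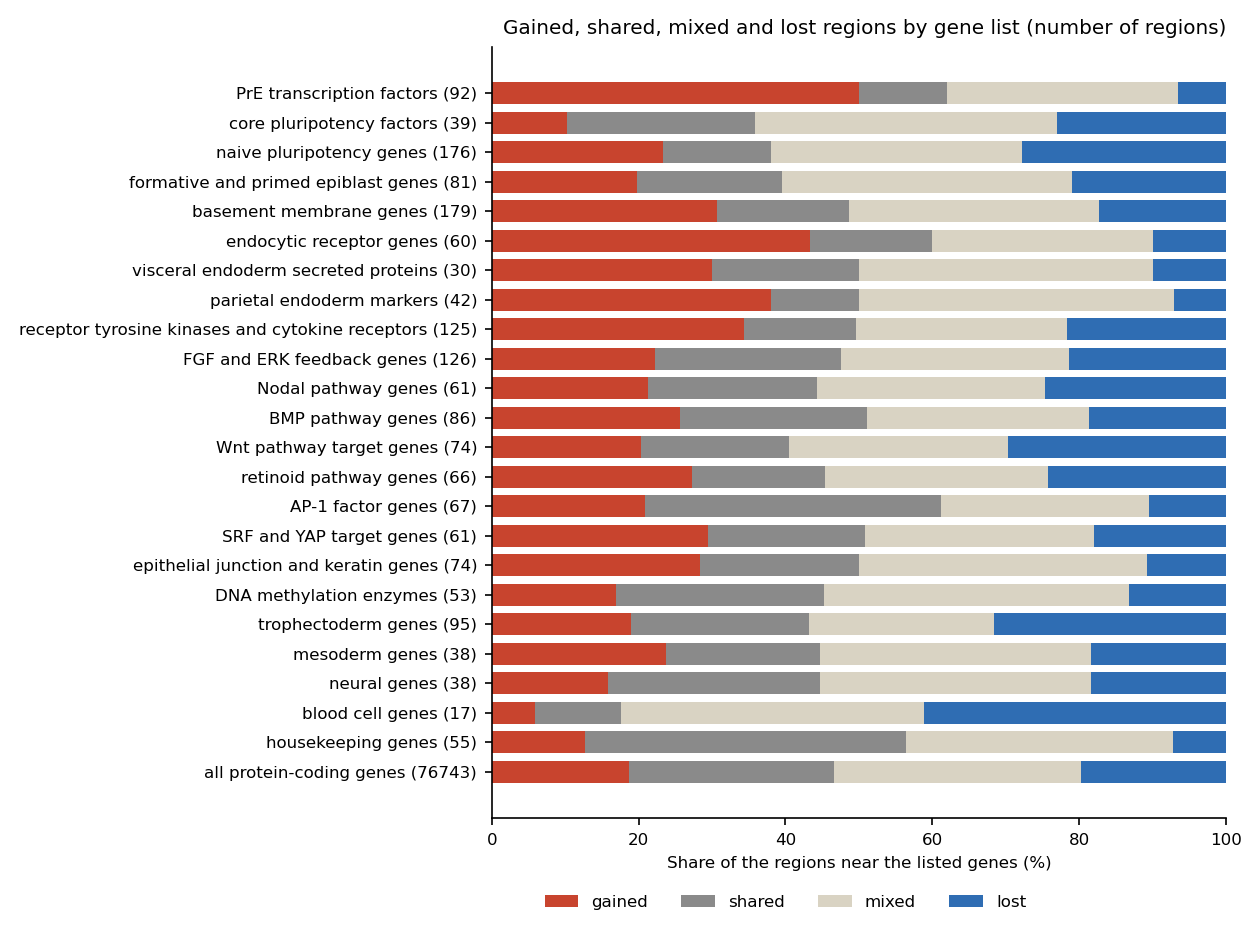
Bars give the share (%) of the regions near the genes of each list that were gained, shared, mixed or lost, with the number of regions in brackets. PrE transcription factors have the widest gained segment (50%), and the bottom bar is the background of all protein-coding genes (18.7% gained, 19.8% lost).

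Gained and lost regions also stood in runs. Runs of at least 5 regions of 1 class, each at most 12500 bp from the next, numbered 103 for gained and 79 for lost regions. They held 593 gained (3.20%) and 445 lost regions (2.11%), and 26 and 24 of them contained a region of the opposite class. The number of runs depended on the permitted gap, with 8 and 1 at 5 kb and 388 and 370 at 25 kb, and on merging, with 45 and 42 when peaks up to 500 bp apart were joined. It was also higher whenever 1 library was left out, with 138 to 279 gained and 101 to 233 lost runs. In that case 1 call in place of 2 decides at that time point, which is a looser rule. Gained runs numbered 279 without replicate 1 of 48 h, 195 without replicate 2 of 48 h and 157 without replicate 2 of 0 h, and lost runs 233 and 175 without replicates 1 and 2 of 0 h.

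The run with most gained regions lay in the Ugt1a locus, whose alternative first exons encode enzymes that couple glucuronic acid to bilirubin, hormones and drugs. It had 13 gained regions in 83.1 kb (chromosome 1, 88075182 to 88158303) and no region of another class. All 13 were intronic, and 4 of them lay within 1 kb of a TSS. None was called at 0 h or 2 h, 2 and 1 were called at 8 h, 4 and 5 at 16 h and 9 in each library of 24 h. The second run, with 11 regions (chromosome 12, 31218410 to 31271132), was nearest to Lamb1, for the laminin beta 1 chain, with 5, and to the predicted gene Gm6993 with 6. Dcbld1 had a run of 9 gained regions (chromosome 10, 52215413 to 52271846). Runs of 8 were near Irf2bp1 and Foxa3, a forkhead gene (chromosome 7, 19000361 to 19032305), and near Tle3, for a corepressor (chromosome 9, 61302746 to 61337726), where 3 were already called in each library of 2 h. The 2 other runs of 8 were near Slc7a6 and Rhpn2.

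The run with most lost regions was within Esrrb, with 9 lost regions in 50.0 kb (chromosome 12, 86454951 to 86504932) and 3 gained regions among them. Of the 9, 7 and 8 were called at 2 h, 7 and 4 at 8 h, 7 and 8 at 16 h and 5 and 4 at 24 h, so that most outlasted the first 16 h. Runs of 8 lost regions each were within Tenm4 (chromosome 7, 96643586 to 96684394) and Rbfox2 (chromosome 15, 77181489 to 77227134), near Slc6a7, for a proline transporter (chromosome 18, 60990539 to 61021259), and in an intron of Clybl (chromosome 14, 122323824 to 122363643), over 50 kb from any protein-coding TSS. The fifth run of 8, near Lrrc31 and Samd7, had the longer span of 58.3 kb (chromosome 3, 30684779 to 30743046). The Rbfox2 run was called in 6 and 7 of 8 cases at 2 h and in 0 and 1 at 24 h. The Clybl run was called in 4 of 8 cases in each library of 2 h and in 1 and 2 at 24 h.

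The regions of genes with many and with few changed regions were compared last. Gained regions of genes with 1 gained region held a GATA site in 52.2% of cases, and those of genes with at least 5 in 60.6%. For lost regions the shares were 20.1% and 20.5%. Intronic position accompanied the count in both classes, from 44.7% to 64.5% of gained and from 46.0% to 69.6% of lost regions, and the share within 1 kb of a TSS went from 24.4% to 9.94% of gained and from 15.3% to 7.69% of lost regions.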

How the data were processed

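Peak lists of 4 ATAC-seq libraries, 2 of 0 h and 2 of 48 h, were compared, and the 10 libraries of 2 to 24 h served only as values the classes did not use. The authors deposited 1 peak list per library from the ENCODE ATAC-seq pipeline, filtered per library on pseudoreplicates by irreproducible discovery rate (0.05, per the file names) and against a blacklist, without pooling replicates. Each deposited peak carries an unnamed score, used here only to rank peaks within a list. The submitters' processing notes name mm10 (GRCm38), and no peak passed a chromosome end in that build. The lists hold no reads, so depth and intervals that need it cannot be given, and a region absent from a list may lie under that library's threshold.

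Peaks overlapping by 1 bp were merged and classed by their calls. Regions were assigned to the nearest TSS of a GENCODE M21 protein-coding transcript within 50 kb, counting from 1, and to exon, intron or intergenic sequence by their centre. Motifs were sought on both strands of the central 200 bp. Regions are not replicates, so counts are descriptive, without tests across regions or genes. Replicate-pair values compare libraries of the same number. All gained, lost and shared regions are counted in both pairs, so the pairs are not independent. Scripts used Python 3.11.15, pandas 2.3.3 and pysam 0.24.0, and were tested on simulated data.

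Named genes were the 15 with most gained, the 15 with most lost and the 10 with most of both regions, with ties going to the larger share of the class, the 5 runs of each class with most regions (ties to the shorter span), and up to 4 genes of each list with most changed regions, with all PrE factors and core pluripotency factors. Others (Lamb1, Col4a2, Fgfr1, Fgfr3, Fgf4 and the genes led by 1 TSS, for example) were named after their values were seen. The classes, lists and genes were chosen with earlier results of these data known. Results for some items, which remain in summed counts, are not reported here. Alternatives covered stricter peaks and overlap, wider merging, other distances, start sites, gaps and search windows, and leaving out each library.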

Additional observations from a re-analysis of the deposited data

How the results depend on the processing

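No paired analysis was possible because the region counts come from no test, and the values by same-numbered libraries in the report are descriptions. With 1 library left out, 2 calls against 1 decide a class. Gained regions then numbered 20167 to 25668, lost 22405 to 28233 and shared 24904 to 26281. Shares within 1 kb of a TSS were 13.98% to 16.7%, 8.63% to 9.64% and 49.2% to 49.9% for gained, lost and shared regions, and shares with a GATA site 53.9% to 56.9%, 20.9% to 21.4% and 17.9% to 18.3%. Genes with at least 5 gained regions numbered 504 to 804, with at least 5 lost 542 to 895 and with both kinds 5071 to 5188. Runs numbered 138 to 279 and 101 to 233.

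Shares are given below for gained, lost and shared regions in this order, and genes or runs for gained and lost. The 50000 highest peaks per library gave TSS shares of 14.9%, 8.23% and 53.3% and GATA shares of 56.8%, 21.6% and 17.2%. Coverage of at least 50% of a region gave 14.4%, 9.03% and 53.0%, and 57.8%, 21.2% and 17.6%. Merging peaks up to 500 bp apart gave 9.40%, 6.67% and 49.4%, 59.3%, 22.045% and 17.9%, and 45 and 42 runs. Merging all 14 lists gave 12.51%, 7.74% and 50.8%, and 57.8%, 22.5% and 18.2%. With 1 TSS per gene the TSS shares were 8.10%, 3.46% and 42.4%, and 206 and 160 genes had at least 5 regions. These numbered 193 and 209 within 20 kb, 617 and 715 within 100 kb, and 211 and 236 when TSSs of other gene types could be nearest. Gaps of 5 and 25 kb gave 8 and 1 and then 388 and 370 runs. GATA shares were 72.2%, 50.3% and 46.0% in whole regions, 73.3%, 40.6% and 31.7% in 400 bp, and 63.3%, 22.4% and 27.1% over 5 kb from a TSS. In each of these settings the GATA share of gained regions stayed the highest of the 3 classes. For shifts not set by the alternative's own construction the cause was not tested. Of 360 gene counts for the 15 gained and 15 lost genes, 306 stayed within 1.5 times the reported count.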

Other observations

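Some genes had changed regions of 1 class alone, named here after their values were seen. Of 21938 protein-coding genes, 79 had at least 5 gained and no lost regions, and 85 at least 5 lost and no gained ones. Among the 79 genes with at least 5 gained and no lost regions were Ets1, a transcription factor gene with 10 gained, Gcnt1, for an enzyme that branches O-linked glycans, with 9, Slc34a2, for a phosphate transporter, with 8, and Rp1l1 with 8. Among the 85 genes with at least 5 lost and no gained regions were Nhsl1 with 11 lost, Epb41l4a with 10, Slc9a9, for a sodium-proton exchanger of endosomes, with 9, Elavl2, for an RNA-binding protein, with 9, and Pde8b, a cAMP phosphodiesterase gene, with 8. Pde4d, of the same enzyme superfamily as Pde8b, had 11 gained and 15 lost regions.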
